A study of Mus musculus with 8 samples.

Results

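Tcf7, Lef1, Bach2, Satb1, Klf3, Foxo1 and Foxp1 are 7 transcription factors of naive, resting and stem-like T cells, and their RNA was followed here in regulatory T (Treg) cells with and without the calcium sensors STIM1 and STIM2. They were chosen by symbol from 52459 listed genes, and all 7 were among the 15419 genes with enough reads to be tested. RNA was sequenced in 8 libraries, with 2 libraries in each of 4 groups that combine genotype and stimulation. Stimulation was 16 h on plates coated with 1 µg/ml of antibodies to CD3 and CD28, which stand in for the T cell receptor ligand and for costimulation. STIM1 and STIM2 open the calcium channel that refills the cell after receptor engagement, called store-operated calcium entry (SOCE), and the comparisons ask which of the factors differ in RNA when SOCE is lost and how each one responds to stimulation.

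All cells came from female C57BL/6 mice heterozygous for Foxp3-YFPcre and carrying Stim1 fl/fl and Stim2 fl/fl, whose ages are not given in the sources used here. Cre is driven by the Foxp3 promoter on the X chromosome, so each female holds Treg cells that express Cre and others that do not. The WT groups are CD4+CD25hi cells negative for YFPcre, and the Stim1/2-deficient groups are CD4+CD25hi cells positive for YFPcre. Both therefore carry the floxed alleles and developed in such females, and genotype cannot be told apart from expression of Cre. Whether libraries of both genotypes came from the same mice is not given in the sources used here. Each library was a pool of spleen and lymph node cells of several mice, and the spread between a pair of libraries is that between pools. The labels number the unstimulated WT pair 3 and 4 and each other pair 1 and 2. Unstimulated libraries carry one sequencing lane label and stimulated libraries another, so stimulation and lane cannot be told apart. No time in culture is given for the unstimulated cells, so stimulation by the antibodies cannot be told apart from 16 h in culture.

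In a resting T cell these factors hold the cell out of the effector programme and away from division. TCF-1 (Tcf7) and LEF-1 (Lef1) are related HMG-box proteins that bind DNA with beta-catenin or with Groucho corepressors, and they mark naive and memory-like T cells. BACH2 is a repressor that competes with AP-1 factors at effector genes, SATB1 folds chromatin into loops, and KLF3 is a zinc finger repressor. FOXO1 activates homing and survival genes until AKT, downstream of the T cell receptor, drives it out of the nucleus, and FOXP1 keeps naive T cells quiescent. In Treg cells these factors are known as features of the resting, central state, which gives way to an effector state upon activation.

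The libraries held 11851853 to 16306540 reads on genes, and 1 read was worth 0.759 to 1.48 normalized counts (reads divided by a size factor of the library). The 7 factors had at least 876 reads in every library. In unstimulated cells Stim1 was at 1139 and 1377 normalized counts in WT libraries and 1538 and 1868 in those labelled Stim1/2-deficient, and neither Stim1 nor Stim2 was called in either state (limma adjusted p from 0.236 to 0.827). Reads were summed over whole genes, which hides the loss of single exons, so libraries are named by their labels, and those labelled Stim1/2-deficient are called DKO-labelled (double knockout). Treg markers were present in all 8 libraries, with 4258 to 11918 normalized counts of Foxp3. The summed level of 12 macrophage and myeloid markers was 10535 and 1571 normalized counts in the unstimulated libraries labelled Stim1/2-deficient, replicates 1 and 2, against 350.1 to 359 in unstimulated WT libraries. That of 12 B cell markers was 3883 and 942 against 353 to 388, and that of 8 CD8 T and NK markers was 1401 and 427 against 456 to 506. The part of these other cells in the results was not tested. Values without replicate 1 are given for the genotype results of the 7 factors in unstimulated cells and for some of the lists.

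The start sites of 3 of the factors are shown because their RNA differed in the comparisons described here. Satb1 had the largest fall with stimulation in WT cells, though not in DKO-labelled cells, Klf3 the smallest adjusted p for genotype in unstimulated cells, and Foxo1 no call for genotype in either state with all libraries. Each sequence is the 250 bases before the first base of the gene on its own strand, from RefSeq on GRCm38.p6, with any match to the motifs below in capitals. The Satb1 stretch is chr17:51833291-51833540 on the minus strand, the Klf3 stretch is chr5:64803271-64803520 on the plus strand and the Foxo1 stretch is chr3:52268087-52268336 on the plus strand.
Satb1: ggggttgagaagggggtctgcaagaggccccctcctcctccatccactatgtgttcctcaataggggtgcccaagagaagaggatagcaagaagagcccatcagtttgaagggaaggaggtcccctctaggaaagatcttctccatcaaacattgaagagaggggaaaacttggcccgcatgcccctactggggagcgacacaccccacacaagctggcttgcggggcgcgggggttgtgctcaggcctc
Klf3: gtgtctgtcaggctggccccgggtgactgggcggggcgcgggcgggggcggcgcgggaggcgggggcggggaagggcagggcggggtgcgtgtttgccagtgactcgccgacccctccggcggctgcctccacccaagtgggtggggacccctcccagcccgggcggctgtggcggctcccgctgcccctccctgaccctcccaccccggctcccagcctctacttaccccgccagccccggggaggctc
Foxo1: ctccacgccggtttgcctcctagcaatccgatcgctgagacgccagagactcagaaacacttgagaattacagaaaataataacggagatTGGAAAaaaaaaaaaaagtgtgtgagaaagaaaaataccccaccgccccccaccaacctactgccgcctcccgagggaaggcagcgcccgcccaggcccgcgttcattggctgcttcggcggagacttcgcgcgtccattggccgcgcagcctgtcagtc
The motifs were searched on both strands in windows of 300 bases, from 250 before to 50 after a start site, and no match overlapped another. They were GTAAACA for forkhead proteins, found in 3.65% of the 32851 windows of all genes, ATCAAAG for TCF and LEF proteins (3.73%), TGGAAA as the core of the NFAT site (21.4%), TGANTCA for AP-1 (7.81%) and CCACACCC for KLF proteins (3.56%). Among the 17 windows of the 7 factors, Foxo1 held the NFAT core 160 bases before its start. A window of Foxp1 held it at 159 and 37 bases before another start within the gene, at 99520993 on chromosome 6. A window of Tcf7, at a start within the gene at 52282595 on chromosome 11, held the KLF motif 69 bases before it and the forkhead motif 1 base after it. No window of Lef1, Bach2, Satb1 or Klf3 held any of the 5 motifs, which says only that these letters are not in these windows.

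In unstimulated cells, RNA of 6 of the 7 factors lay higher in both libraries labelled Stim1/2-deficient than in both WT libraries, and Foxo1 was the exception. Klf3 was 1.92-fold and Bach2 1.78-fold higher, and these 2 passed the test. Lef1, Satb1, Tcf7 and Foxp1 had fitted folds between 1.48 and 1.98 and did not pass it. An unadjusted limma p under 0.05 was found for 6 of the 7 factors, of which only Foxp1 was below 1.5-fold. Among all 15419 tested genes, 1338 higher and 1705 lower had such a p with a change over 1.5-fold. Of all tested genes, 1.38% were called higher, and 26.5% were higher without overlap. DESeq2 on the recovered reads called 5 factors higher (Bach2, Klf3, Lef1, Satb1 and Tcf7), and 511 of all 15419 tested genes. EdgeR called 2 (Bach2 and Klf3), and 131 of all tested genes. Without DKO-labelled replicate 1 the log2 fold changes of the 7 factors ran from 0.46 in Foxo1 to 1.48 in Satb1. Without DKO-labelled replicate 2 they ran from -0.62 in Foxo1 to 0.87 in Klf3. A gene was called at a limma adjusted p under 0.05 with a change of more than 1.5-fold, in 1 model of the 8 libraries on log2 values after adding 1.

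**Figure D1:**
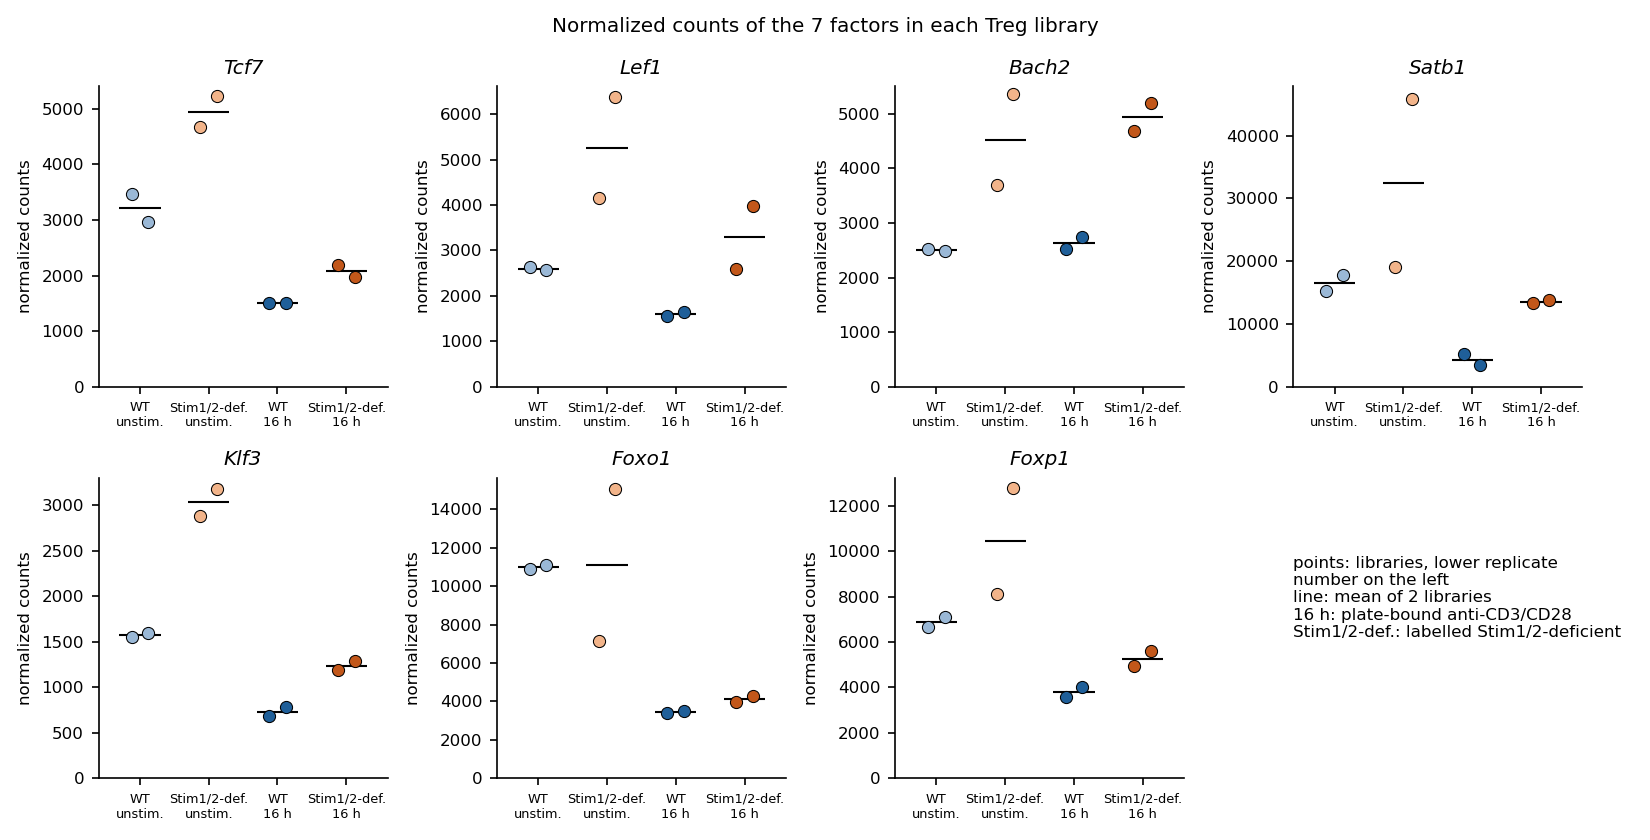
Normalized counts of each factor (vertical axes, from 0) in the 4 groups (horizontal axes), with a point for each library and a line at the mean of 2 libraries. In Bach2 both stimulated groups lie above the unstimulated group of the same genotype on average, while the means of the other 6 factors are lower after stimulation, and Satb1 ranges from 3519 to 45797.

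Klf3, on chromosome 5 (chr5:64803521-64832901), had 1555 and 1594 normalized counts in the WT pair and 2879 and 3177 in DKO-labelled libraries. The groups lay far apart beside the gap within each pair. The log2 fold change, given here as the log2 difference between groups, was 0.94 (standard error, SE, of 0.18, 95% confidence interval 0.55 to 1.33, limma adjusted p = 0.0201). It was 1.01 without DKO-labelled replicate 1 and 0.87 without DKO-labelled replicate 2, both called. The call was lost without either WT library (adjusted p = 0.248 without replicate 3 and 0.110 without replicate 4), which leaves 1 library in that group. It was also lost without either stimulated WT library (adjusted p = 0.0525 and 0.0550), which lend the model their spread.

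Bach2, on chromosome 4 (chr4:32238413-32586109), had 2514 and 2477 normalized counts in WT and 3691 and 5361 in DKO-labelled libraries. The WT pair was nearly level, and the DKO-labelled pair was not. The log2 difference was 0.83 (SE 0.20, 95% confidence interval 0.39 to 1.28, limma adjusted p = 0.0454). Without DKO-labelled replicate 2 it was 0.56 (adjusted p = 0.0522) and without DKO-labelled replicate 1 it was 1.10 (adjusted p = 0.00624). Without WT replicates 3 and 4 in turn the adjusted p was 0.342 and 0.181, and without stimulated WT replicates 1 and 2 it was 0.0957 and 0.0980. The antisense transcript Bach2os had 44.2 and 76.8 normalized counts in WT and 123 and 215 in DKO-labelled libraries, and the intronic transcript Bach2it1 had 112 and 229 against 239 and 772. Neither was called (adjusted p = 0.0746 and 0.187). Whether the counting used strand is not given in the sources used here, so reads of these transcripts and of Bach2 cannot be told apart.

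The paired HMG-box factors differed in how far their DKO-labelled libraries spread. Lef1 (chr3:131110297-131224357) had 2635 and 2564 normalized counts in WT and 4154 and 6379 in DKO-labelled libraries, and its log2 difference was 0.99 (SE 0.25, limma adjusted p = 0.0531). Tcf7 (chr11:52246527-52283383) had 3468 and 2966 in WT and 4669 and 5222 in DKO-labelled libraries, a log2 difference of 0.62 (SE 0.17, adjusted p = 0.0709). For both genes all DKO-labelled libraries lay above all WT libraries, and both narrowly missed the limma threshold. DESeq2 on the recovered reads called both (DESeq2 adjusted p = 0.00424 for Lef1 and 0.0312 for Tcf7), and edgeR called neither. Without DKO-labelled replicate 1 both were called, Lef1 at 1.29 (adjusted p = 0.0173) and Tcf7 at 0.70 (adjusted p = 0.0450). Without DKO-labelled replicate 2 neither was (0.68 and 0.54).

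Satb1, Foxo1 and Foxp1 had a wide gap within the DKO-labelled pair. Satb1 (chr17:51736187-51833290) had 15183 and 17809 normalized counts in WT and 19149 and 45797 in DKO-labelled libraries, a log2 difference of 0.85 (SE 0.35, limma adjusted p = 0.185). Foxp1 (chr6:98925342-99522746) had 6667 and 7093 in WT and 8095 and 12784 in DKO-labelled libraries, a log2 difference of 0.56 (SE 0.22, adjusted p = 0.166). Foxo1 (chr3:52268337-52350109) had 10902 and 11083 in WT, and the DKO-labelled libraries, at 7147 and 15068, lay on either side of them. Its log2 difference was -0.08 (95% confidence interval -0.72 to 0.55, adjusted p = 0.900), and the sign turned with the libraries rescaled to equal totals (0.04) or equal upper quartiles (0.08). DKO-labelled replicate 2 was 2.39-fold above replicate 1 in Satb1 and 2.11-fold in Foxo1, and all 7 factors were higher in replicate 2, as were 47.8% of tested genes. The pair differed by more than 2-fold in 19.7% of tested genes. Without DKO-labelled replicate 1, which held more macrophage and B cell marker RNA, Satb1 was at 1.48 and Foxp1 at 0.89, both called, and Foxo1 at 0.46 (adjusted p = 0.0944). Without DKO-labelled replicate 2, Satb1 was at 0.22 and Foxp1 at 0.24, neither called, and Foxo1 was called lower at -0.62 (adjusted p = 0.0299). BACH2, FOXO1 and FOXP1 are also known in B cells.

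**Figure D2:**
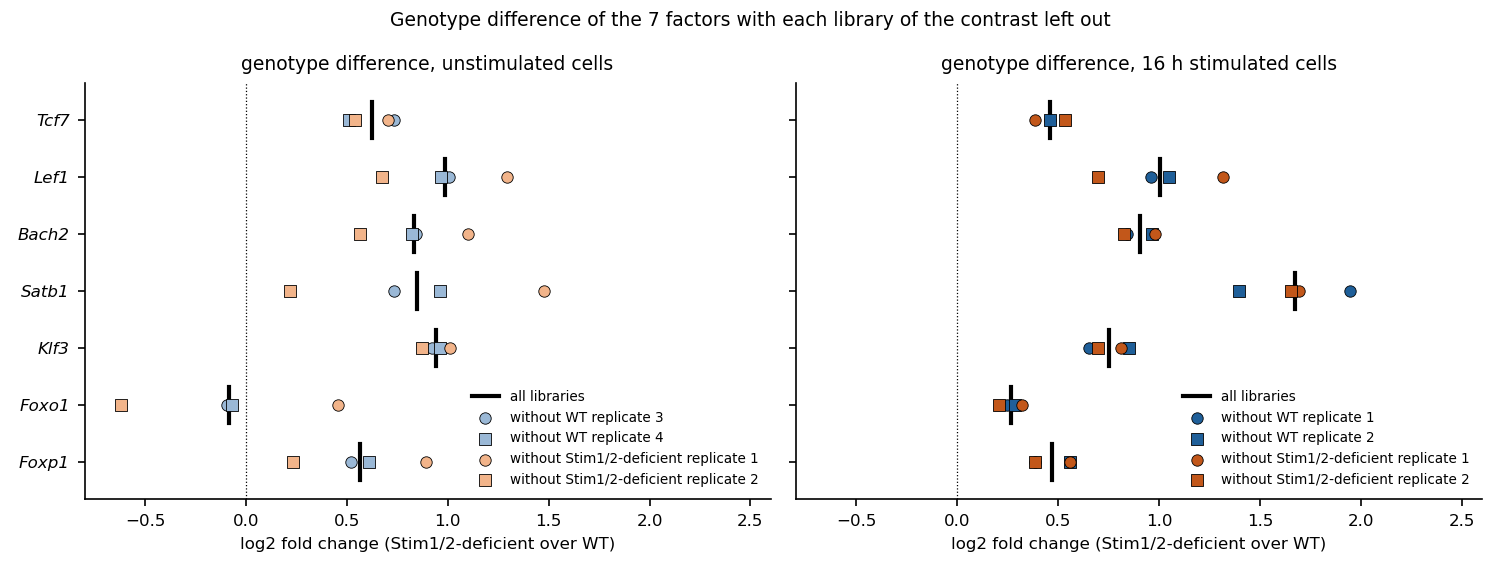
Log2 difference of libraries labelled Stim1/2-deficient over WT (horizontal axis) for each factor (vertical axis), in unstimulated and stimulated cells, with all libraries (bars) and with each library of the contrast left out (symbols). In unstimulated cells Klf3 stays between 0.87 and 1.01, whereas Satb1 moves from 0.22 to 1.48 and Foxo1 from -0.62 to 0.46, each between the fits without DKO-labelled replicate 2 and without DKO-labelled replicate 1.

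After 16 h of stimulation, all 7 factors had more RNA in both DKO-labelled libraries than in both WT libraries, against 24.3% of all tested genes, and none was called. Called higher were 0.162% of all tested genes. By unadjusted p under 0.05, 5 of the 7 passed (Tcf7, Lef1, Bach2, Satb1 and Klf3). DESeq2 on the recovered reads called 4 factors higher (Lef1, Bach2, Satb1 and Klf3) and edgeR called 0. Among all 15419 tested genes DESeq2 called 238 higher and 287 lower, and edgeR called 1 higher and 0 lower. Both DKO-labelled libraries lay above both WT libraries in both states for 6 of the 7 factors and for 9.59% of tested genes.

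Satb1 showed the widest gap between genotypes in stimulated cells. WT libraries had 5157 and 3519 normalized counts and DKO-labelled libraries 13409.5 and 13761, so that the group means stood 3.13-fold apart. The DKO-labelled pair was nearly level, and both values exceeded the higher WT value by far more than the gap between the WT libraries. The log2 difference was 1.67 (SE 0.35, 95% confidence interval 0.90 to 2.44, limma adjusted p = 0.0703), and it ran from 1.40 without WT replicate 2 to 1.95 without WT replicate 1.

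Bach2 had 2529 and 2749 normalized counts in stimulated WT libraries and 4679 and 5197 in DKO-labelled libraries, a log2 difference of 0.90 (SE 0.20, limma adjusted p = 0.0832). Bach2os followed with 46.0 and 66.1 against 129 and 150.3, and Bach2it1 with 74.0 and 106 against 128 and 295. Neither of these transcripts was called. Lef1 had 1551 and 1649.9 in WT and 2597 and 3979.8 in DKO-labelled libraries, a log2 difference of 1.01 (SE 0.25, adjusted p = 0.110). Klf3 had 683 and 784 in WT and 1185 and 1283 in DKO-labelled libraries, a log2 difference of 0.75 (SE 0.18, adjusted p = 0.0961). These 3 genes had folds close to those of the unstimulated cells, and the interaction below is the test of that difference. Leaving out either unstimulated DKO-labelled library alters only the shared spread, so the fold changes stayed the same. Lef1 was at 1.31 without stimulated DKO-labelled replicate 1 and at 0.70 without stimulated DKO-labelled replicate 2.

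The remaining 3 factors differed less. Tcf7 had 1513 and 1515 normalized counts in stimulated WT libraries and 2188 and 1977 in DKO-labelled libraries, a log2 difference of 0.46 (limma adjusted p = 0.263). Foxp1 had 3573 and 4036 against 4959 and 5591, a log2 difference of 0.47 (adjusted p = 0.379). Foxo1 had 3398 and 3493 against 3977 and 4303, a log2 difference of 0.26 (95% confidence interval -0.37 to 0.90, adjusted p = 0.745). None overlapped between genotypes, and the confidence interval of Tcf7 (0.08 to 0.84) lay above 0 while that of Foxp1 (-0.02 to 0.96) held it. In the stimulated libraries the macrophage and myeloid marker sums were 123 to 267 in WT and 303 to 362 in DKO-labelled libraries, with Mrc1 and C1qa at 0 in all 4 libraries, and the B cell marker sums were 235 to 1127 and 368 to 1708.

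RNA of 5 factors fell with stimulation in WT cells, namely Satb1, Foxo1, Klf3, Tcf7 and Foxp1, by 1.81-fold to 3.86-fold. Among all tested genes 13.1% were called lower. Lower without overlap were 6 of the 7 factors and 36% of tested genes. Lef1 had a lower value in both stimulated libraries and missed the threshold, and Bach2 had a small difference of the opposite sign. The unstimulated libraries of each genotype are shared between this comparison and the one between genotypes, so the changes are given side by side and are not independent.

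Satb1 went from 15183 and 17809 normalized counts to 5157 and 3519 in WT cells, a log2 difference of -1.95 (SE 0.35, limma adjusted p = 0.00438). Foxo1 went from 10902 and 11083 to 3398 and 3493, a log2 difference of -1.67 (SE 0.28, adjusted p = 0.00364). In both genes the stimulated pair lay below the unstimulated pair by far more than the gap within either. Klf3 changed by -1.10 (adjusted p = 0.00283), Tcf7 by -1.08 (adjusted p = 0.00279) and Foxp1 by -0.86 (adjusted p = 0.0194). With the libraries rescaled to equal totals, which moved the median of all tested genes by 0.51, Tcf7 (-0.56) and Foxp1 (-0.34) were not called. The call of Satb1 was lost without unstimulated replicate 4 (adjusted p = 0.0516) and without stimulated replicate 2 (adjusted p = 0.0559), and that of Foxp1 without any one of the 4 WT libraries (adjusted p from 0.0879 to 0.137).

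Lef1 had 2635 and 2564 normalized counts before and 1551 and 1649.9 after stimulation of WT cells, a log2 difference of -0.70 (SE 0.25, limma adjusted p = 0.0669). It was called without any one of the 4 DKO-labelled libraries (adjusted p from 0.0216 to 0.0469). Bach2 had 2514 and 2477 before and 2529 and 2749 after, a log2 difference of 0.08 (95% confidence interval -0.37 to 0.52, adjusted p = 0.804). That interval lies above the interval of Satb1 and that of Foxo1. With equal totals Bach2 was called higher (0.60, adjusted p = 0.0294), while the median of all tested genes moved by 0.51.

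In DKO-labelled cells, stimulation gave calls of lower RNA for the same 5 factors and for 12% of the genes tested. Without overlap, 6 of the 7 factors and 30.6% of tested genes were lower. Foxo1 changed by -1.33 (SE 0.28, limma adjusted p = 0.00875), Klf3 by -1.29 (adjusted p = 0.00118), Tcf7 by -1.25 (adjusted p = 0.00122), Satb1 by -1.12 (SE 0.35, adjusted p = 0.0380) and Foxp1 by -0.95 (adjusted p = 0.0118). The call of Satb1 was lost in 7 of the 8 fits that left out a library, with -0.50 (adjusted p = 0.146) without unstimulated DKO-labelled replicate 2 and -1.75 (adjusted p = 0.000686) without unstimulated DKO-labelled replicate 1. That of Foxp1 was lost without stimulated DKO-labelled replicate 1 (adjusted p = 0.0615). Without unstimulated DKO-labelled replicate 2, Foxo1 was at -0.79 and Foxp1 at -0.62, and without unstimulated DKO-labelled replicate 1 they were at -1.86 and -1.28, all called. With equal totals, which moved the median of all tested genes by 0.38, Satb1 (-0.73) and Foxp1 (-0.56) were not called. Lef1 was at -0.68 (adjusted p = 0.0714), with -0.37 without unstimulated DKO-labelled replicate 2 or stimulated DKO-labelled replicate 1. Bach2 was at 0.15 (95% confidence interval -0.30 to 0.59, adjusted p = 0.616), with 3691 and 5361 normalized counts before and 4679 and 5197 after. Its sign turned without unstimulated DKO-labelled replicate 1 (-0.12).

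**Figure D3:**
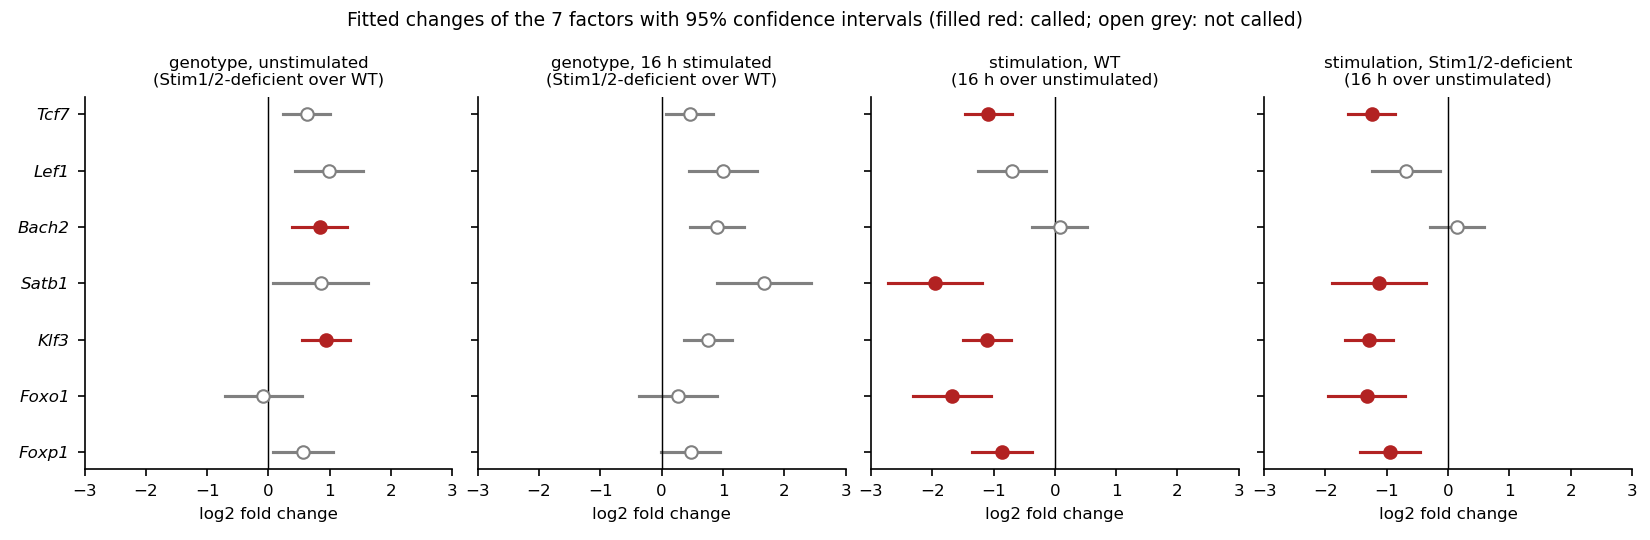
Fitted log2 differences (horizontal axes) of the 7 factors (vertical axis) with 95% confidence intervals for the difference between genotypes in each state and for stimulation in each genotype, where filled red marks a call and open grey none. Stimulation changes run from -1.95 for Satb1 to 0.08 for Bach2 in WT and from -1.33 for Foxo1 to 0.15 for Bach2 in DKO-labelled cells, where Foxo1 is at -0.79 and Klf3 at -1.22 without unstimulated DKO-labelled replicate 2.

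The interaction asks whether the response to stimulation differed between genotypes. Limma called none of the factors and none of the 15419 tested genes (0%). An unadjusted p under 0.05 with a value of more than 1.5-fold was found in 543 genes with negative and 704 with positive values. EdgeR also called 0 genes, and DESeq2 called 13 with negative and 34 with positive values. None of the 7 factors was among them, and 0 had an unadjusted limma p under 0.05. The largest value was that of Satb1, 0.82 (SE 0.49, 95% confidence interval -0.26 to 1.91, limma adjusted p = 0.669), which was 0.20 without unstimulated DKO-labelled replicate 1 and 1.45 (adjusted p = 0.0488) without replicate 2. Foxo1 was at 0.35, Bach2 at 0.07, Lef1 at 0.02, Foxp1 at -0.09, Tcf7 at -0.16 and Klf3 at -0.19. The narrowest interval, that of Tcf7, ran from -0.70 to 0.38, and the intervals of all 7 factors held 0.

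Set in order, the 4 groups formed 3 patterns. For Tcf7, Satb1, Klf3, Foxp1 and Foxo1, the mean normalized counts ran from stimulated WT through stimulated DKO-labelled and unstimulated WT to unstimulated DKO-labelled cells. Neighbouring groups overlapped only between the unstimulated genotypes in Foxo1. There the means were 10992 in WT and 11107 in DKO-labelled cells, while the log2 difference had the opposite sign (-0.08). For Lef1, unstimulated WT lay below stimulated DKO-labelled cells, and these neighbours overlapped. For Bach2, both WT groups lay below both DKO-labelled groups, and only the latter overlapped. The ratio of stimulated DKO-labelled to unstimulated WT means was 1.98 for Bach2, 1.26 for Lef1, 0.824 for Satb1, 0.784 for Klf3, 0.767 for Foxp1, 0.647 for Tcf7 and 0.377 for Foxo1. Bach2 thus had a higher level in stimulated DKO-labelled than in unstimulated WT cells, and Foxo1 had the lowest of the 7 ratios. How many of all tested genes share each order was not counted. Single separations were common, with 26.5% of tested genes higher without overlap in unstimulated and 24.3% in stimulated DKO-labelled cells. With stimulation 36% were lower without overlap in WT and 30.6% in DKO-labelled cells.

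How alike the factors were was described by the root mean square difference of their log2 values over the 8 libraries, each gene centred on its own mean. The closest of the 21 pairs were Tcf7 and Klf3 (0.19) and Tcf7 and Foxp1 (0.22). The farthest were Bach2 and Foxo1 (0.91) and Bach2 and Satb1 (0.91), and the same pairs were closest and farthest with quantile normalization. The points are libraries that share depth and scaling, and the measure carries no test.

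Genes averaging 100 or more normalized counts numbered 9147, and the 3 nearest to each factor were as follows. Nearest to Foxo1 were Stk4 (0.07), Cdk11b (0.08) and Rb1cc1 (0.10), of which Stk4, a kinase, had 11168 and 11274 normalized counts in unstimulated WT and 7397 and 14237 in DKO-labelled libraries, the same split between DKO-labelled replicates as Foxo1. Nearest to Satb1 were Gm36931 (0.27), Arap2 (0.31) and Bcl2l11 (0.31), the last of which encodes the pro-apoptotic protein BIM and had 581 and 736 normalized counts in stimulated WT and 1720.0 and 1753 in DKO-labelled libraries. Nearest to Bach2 were 3110056K07Rik (0.15), Gimap4 (0.17) and Ssbp2 (0.19), and Gimap4 had 5982 and 5831 in stimulated WT against 8842 and 13220.1 in DKO-labelled libraries. Tcf7 was nearest to Kmt2c, Dock11 and Pip4k2a (each 0.14), Lef1 to Slc15a2 (0.13), Map3k3 (0.16) and Abtb2 (0.18), Klf3 to CT025639.1, Herc3 (each 0.16) and Ablim1 (0.17), and Foxp1 to Zbtb11 (0.11), Cyth1 (0.11) and Ptk2b (0.12). With quantile normalization, 5 of the 7 factors had none of these neighbours and Tcf7 and Foxo1 kept 1 each.

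TCF-1 and LEF-1 act through partners that bind beta-catenin or repress transcription. Of 17 TCF/LEF partners tested, which include the Tle corepressors, Axin1, Axin2 and the subunits of the beta-catenin destruction complex, 0 were called in unstimulated cells by limma or edgeR and 1 by DESeq2, with 3 at an unadjusted limma p under 0.05. Their median log2 difference was 0.13, beside -0.01 for all tested genes, and 0.11 in stimulated cells, beside 0.02. Tcf7l2, a further TCF family member, had 90.7 and 81.2 normalized counts in WT and 352 and 287 in DKO-labelled libraries (log2 difference 1.88, limma adjusted p = 0.0549). Ctnnb1, which encodes beta-catenin, had 1244 and 1542 against 771 and 1052 (-0.62, adjusted p = 0.129). Of 18 relatives from the same gene families, such as Klf2, Foxo3 and Foxp4, limma and edgeR called 0 and DESeq2 called 2, with 5 at an unadjusted limma p under 0.05 and a median of -0.12, which was -0.46 without DKO-labelled replicate 2 and 0.07 without DKO-labelled replicate 1. In stimulated cells their median was 0.11, and it ran from 0.02 to 0.25 with 1 library left out. Klf12 had 30.2 and 51.7 against 18.9 and 14.7 normalized counts (-1.20, adjusted p = 0.456). Of 8 genes linked to TCF-1 in follicular and memory-like cells, 1 was called lower and 0 higher, against 3.35% and 1.38% of tested genes. The gene called lower was Izumo1r (folate receptor 4), with 1049 and 799 against 514 and 321 normalized counts (-1.17, adjusted p = 0.0397). EdgeR called 0 of the 8, and the median was -0.46 in unstimulated cells (-0.58 without DKO-labelled replicate 2 and -0.14 without DKO-labelled replicate 1) and 0.33 in stimulated cells (0.17 without WT replicate 2).

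The genes upstream and downstream of FOXO1 were each listed from known roles. Of 14 FOXO regulators, such as Akt1 and the subunits of PI3-kinase, limma and edgeR called 0 in unstimulated cells and DESeq2 called 3, with 3 at an unadjusted limma p under 0.05 and a median log2 difference of -0.12. In stimulated cells the median was 0.14 and 1 was called higher, against 0.162% of all tested genes. This was Pik3ip1, an inhibitor of PI3-kinase, which edgeR did not call. It had 81.8 and 82.8 normalized counts in WT and 192 and 277 in DKO-labelled libraries (1.48, limma adjusted p = 0.0490). For 14 FOXO targets, which also count Pik3ip1 and Rictor, the median in unstimulated cells was 0.28. It was -0.04 without DKO-labelled replicate 2 and 0.57 without DKO-labelled replicate 1. Against 1.38% of all tested genes, 2 of the 14 targets were called higher. They were Txnip, a brake on glucose uptake, with 2446 and 2223 against 4628 and 5792 normalized counts (1.15, adjusted p = 0.0287), and Btg1, an antiproliferative protein, with 9553 and 9539.7 against 18254 and 16360.5 (0.86, adjusted p = 0.0251). Between stimulated genotypes the median was 0.66, beside 0.02 for all tested genes, and 12 of the 14 targets lay higher without overlap, against 24.3% of all tested genes, while only Pik3ip1 was called. After stimulation 13 of the 14 targets were called lower in WT cells and 11 in DKO-labelled cells, against 13.1% and 12% of all tested genes, with medians of -1.98 and -1.68.

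Among 18 other quiescence regulators tested, 1 was called higher and 1 lower in unstimulated cells, against 1.38% and 3.35% of tested genes. The first was Btg1 and the second Zfp36l1, an RNA-binding protein that destabilizes transcripts. Zfp36l1 had 1938 and 1672 normalized counts in WT and 1029 and 982 in DKO-labelled libraries (log2 difference -0.84, limma adjusted p = 0.0349). The median of the 18 was 0.03 in unstimulated cells and 0.17 in stimulated cells. In unstimulated cells it was -0.11 without DKO-labelled replicate 2 and 0.24 without DKO-labelled replicate 1. After stimulation 16 of the 18 were called lower in WT cells and 13 in DKO-labelled cells, against 13.1% and 12% of all tested genes, with medians of -1.19 and -1.04. The medians of the 7 factors were -1.08 and -1.12 for stimulation and 0.83 for genotype in unstimulated cells.

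BACH2 pairs with small MAF proteins and represses effector genes, and these were listed together. Of 13 tested, 9 had a lower and 4 a higher fitted value in unstimulated cells, with a median log2 difference of -0.82. The median was -1.73 without DKO-labelled replicate 2 and -0.64 without DKO-labelled replicate 1. Called were 6 lower and 1 higher, against 3.35% and 1.38% of all tested genes. Several, among them Klrg1, Il1rl1 and Prdm1, were named as lower by the study from these libraries. Their direction is therefore no independent evidence. Klrg1, a receptor of terminally differentiated cells, had 2136 and 1715 normalized counts in WT and 155 and 20.0 in DKO-labelled libraries (-5.06, limma adjusted p = 0.0252). Il1rl1, the IL-33 receptor ST2, had 1694 and 1746 against 138 and 50.8 (-4.34, adjusted p = 0.0179), and Prdm1, which encodes the effector factor BLIMP-1, had 2050.4 and 1637 against 382 and 196 (-2.74, adjusted p = 0.00538). The gene called higher was Nfe2l2, whose product NRF2 shares the DNA motif of the BACH proteins, with 660.4 and 759 against 1206 and 1238 (0.79, adjusted p = 0.0451). Between stimulated genotypes the median was -0.81, and 7 of the 13 had an unadjusted limma p under 0.05. Limma and edgeR called 0 of the 13 and DESeq2 called 5. Among all 15419 tested genes DESeq2 called 238 higher and 287 lower.

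Effector Treg factors are the transcription factors of activated, tissue-homing Treg cells. Of 14 tested, 9 were called lower and 0 higher in unstimulated cells, against 3.35% and 1.38% of all tested genes. Against 27.1% of all tested genes, 13 of the 14 lay lower without overlap. Their median log2 difference was -1.71, with -1.80 without DKO-labelled replicate 2 and -1.69 without DKO-labelled replicate 1. Several of these genes were named by the study from these libraries, so their direction is no independent evidence, and Prdm1, Irf4, Gata3, Ahr and Nfil3 are also in the BACH list. Besides Prdm1, Nfil3 had 1430 and 1197 normalized counts in WT and 135 and 337 in DKO-labelled libraries (-2.61, limma adjusted p = 0.0189), and Rora had 24477 and 25307 against 2412 and 10125 (-2.33, adjusted p = 0.0302). Between stimulated genotypes the median was -0.92 and 1 gene was called lower, Batf, an AP-1 partner of IRF4, with 1379 and 1186 against 464 and 305 (-1.76, adjusted p = 0.0392), where 0.11% of all tested genes were called lower.

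**Figure D4:**
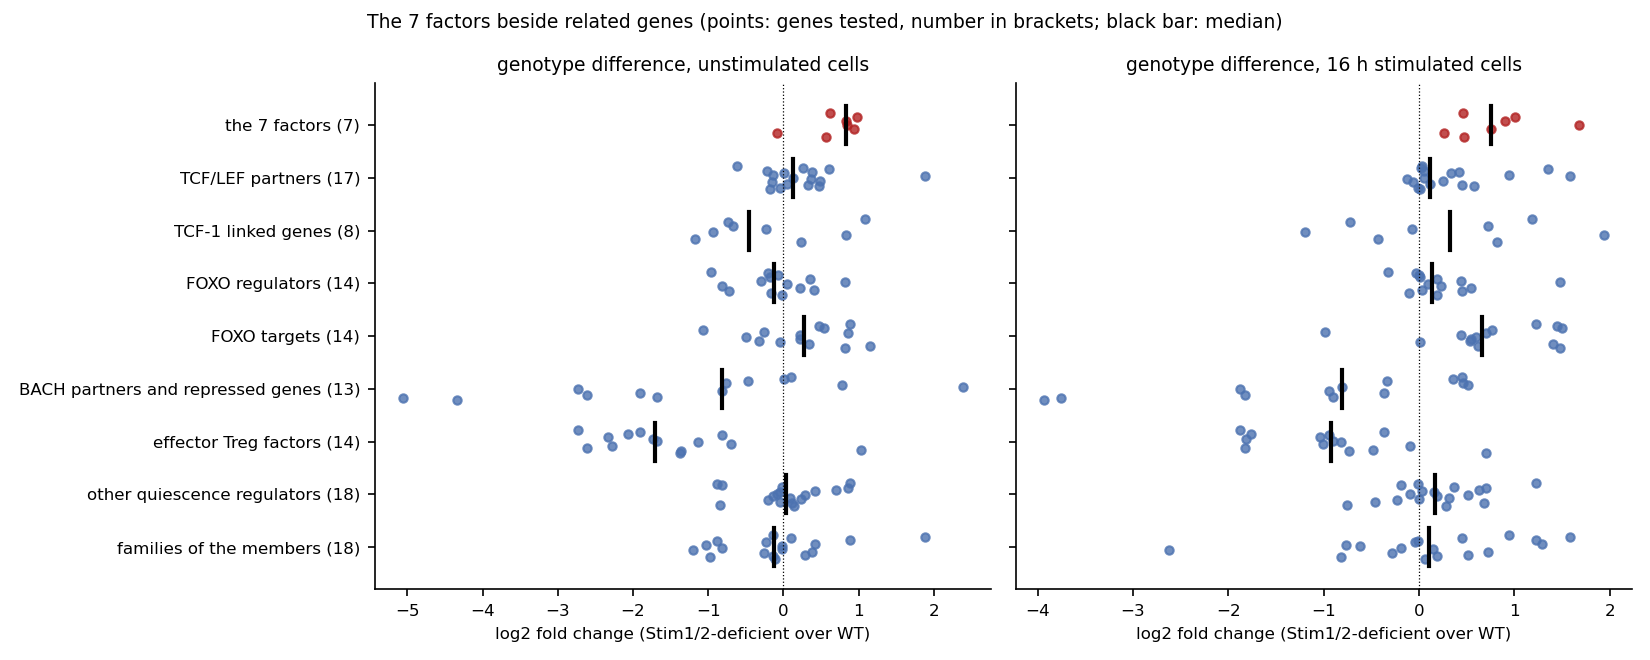
Log2 difference of libraries labelled Stim1/2-deficient over WT (horizontal axis) for the 7 factors and for lists of related genes (vertical axis, number of genes tested in brackets), in unstimulated and stimulated cells, with a point for each gene and a bar at the median. The 7 factors have medians of 0.83 and 0.75, and the effector Treg factors have medians of -1.71 and -0.92.

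Markers of the Treg identity and of other cells were set beside these values. Among all tested genes 3.35% were called lower and 1.38% higher in unstimulated cells. Several of the Treg markers were also named as lower by the study from these libraries, so their direction is no independent evidence. Of 10 Treg markers, 4 were called lower and 0 higher, among them Tnfrsf4, with 2954 and 2671 normalized counts in WT and 461 and 1177 in DKO-labelled libraries (log2 difference -1.93, limma adjusted p = 0.0181), Ctla4 (-1.79, adjusted p = 0.0271) and Tnfrsf18 (-1.23, adjusted p = 0.0486). Of 11 macrophage and myeloid markers 9 were called higher, such as Mrc1 with 14.0 and 5.91 against 2702 and 346 normalized counts. Spic had 6.47 and 1.48 against 530 and 57.4, and C1qc was at 0 in WT and had 197 and 41.4 in DKO-labelled libraries. Of 11 B cell markers 2 were called higher, among them Cr2 with 35.6 and 39.9 against 606 and 176, and of 8 CD8 T and NK markers limma and edgeR called 0 and DESeq2 called 1, with 1 at an unadjusted limma p under 0.05. Klre1 had at most 1.48 normalized counts in WT and 59.8 and 9.35 in DKO-labelled libraries, and Klrb1c had 8.63 and 11.8 against 96.5 and 22.7. In each of these named markers of other cells DKO-labelled replicate 1 held the higher value, and DKO-labelled replicate 2 also exceeded both WT libraries. Both DKO-labelled libraries exceeded both WT libraries in 10 of 11 macrophage and myeloid markers and 8 of 11 B cell markers. The same held for 6 of 8 CD8 T and NK markers and 26.5% of all tested genes. The sum of the 8 CD8 T and NK markers was 427 in DKO-labelled replicate 2, below both WT libraries (506 and 456). In all 7 factors the higher value of the unstimulated DKO-labelled pair was that of replicate 2. The part of other cells in the level of the factors was not tested. In bulk RNA, fewer cells with a transcript and less of it per cell cannot be told apart.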

How the data were processed

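RNA was sequenced in 8 libraries of pooled Treg cells, 2 in each of 4 groups. The authors deposited 1 table of normalized read counts per gene, a signal that is the number of reads divided by 1 size factor per library (DESeq2). The sources differ on how reads were made: the labels name TruSeq Stranded mRNA, bcl2fastq 1.8.4, STAR 2.7 and mm10, and the methods of the study name an unstranded TruSeq kit, Bowtie and the older NCBIM37 build. Of 52459 symbols, 35095 are in the GRCm38.p6 annotation and 28801 in that of NCBIM37, and positions are given on GRCm38.p6. How the aligner and kit affect single values was not tested.

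Whole reads were recovered in 100% of values (tolerance 0.005 normalized counts, slightly wider for large values), and depths are sums of these. Genes with a mean of at least 10 (15419) were tested with limma 3.58.1 in R 4.3.3 on log2(value + 1), with trended empirical Bayes and 1 spread over the 4 groups, for genotype in each state, stimulation in each genotype and the interaction, with Benjamini-Hochberg adjustment within each comparison. A fold change on this scale understates the change of low genes. Called means an adjusted p under 0.05 and a change over 1.5-fold. edgeR 4.0.16 and DESeq2 1.42.0 on the recovered reads were alternatives, as were other pseudocounts, filters and scalings, fits on 4 libraries and leaving out each library. Each sample is a pool of mice by the sources, which do not say whether samples share mice. The p-values measure the spread between libraries and treat these as independent. The scripts were tested on simulated data.

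The members and lists were chosen with earlier results of these data known. Beyond the 7 factors, the text names up to 3 genes called in each direction from each list in unstimulated cells, any called in stimulated cells, the 2 largest changes where none was called, antisense and intronic transcripts of the factors, the 3 genes nearest to each factor (mean of at least 100) and Stim1 and Stim2. Foxp3 and the list examples without values were named as defining genes. 1 gene that this rule names is not reported here. Protein sequences are not used here.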

Additional observations from a re-analysis of the deposited data

How the results depend on the processing

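Of the fold changes of single factors under all alternatives, 535 kept their direction and side of the threshold, 47 became called, 38 lost the call and 17 changed sign. In unstimulated cells the number of the 7 factors called for genotype was 2, and it was 1 with a pseudocount of 0.1 or with every gene above 0, 3 with a pseudocount of 5 or a mean of at least 100, 4 with equal totals, equal upper quartiles or quantile normalization, 5 by DESeq2 and 0 with only the 4 libraries, and ran from 0 to 6 with 1 library left out. In stimulated cells it was 0, and it was 3 with quantile normalization, 4 by DESeq2 and 0 to 4 with 1 library left out. For stimulation it was 5 in WT cells (3 to 6 with 1 library left out) and 5 in DKO-labelled cells, where it was 3 with equal totals or quantile normalization, 2 with only the 4 libraries and 3 to 6 with 1 library left out. For the interaction it was 0, and 0 to 1 with 1 library left out. The number called over all tested genes moved with the setting too. For genotype in unstimulated cells limma called 213 higher and 517 lower, and DESeq2 called 511 and 810. Equal totals moved the median of all tested genes by 0.51 for stimulation in WT cells and 0.38 in DKO-labelled cells. That shift was 0.12 for genotype in unstimulated cells and -0.13 for the interaction. Equal upper quartiles moved the latter 2 by 0.16 and -0.15.

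Signs changed for Foxo1 between unstimulated genotypes (-0.08, against 0.037 with equal totals, 0.080 with equal upper quartiles, 0.0057 by edgeR, 0.030 by DESeq2 and -0.62 to 0.46 with 1 library left out) and for Bach2 with stimulation of DKO-labelled cells (-0.12 to 0.42 with 1 library left out). In the interaction they changed for Lef1 (-0.11 with equal totals, -0.13 with equal upper quartiles, -0.29 to 0.33 with 1 library left out), Bach2 (-0.060, -0.084 and -0.20 to 0.34), Foxo1 (-0.19 to 0.88) and Foxp1 (-0.42 to 0.24). No cause of these changes was tested. With 1 library left out, list medians ran from -0.029 to 0.40 for TCF/LEF partners, -0.40 to 0.092 for FOXO regulators, -0.039 to 0.57 for FOXO targets and -1.73 to -0.64 for BACH partners and repressed genes in unstimulated cells, and from -1.04 to -0.45 for the last in stimulated cells, and that of TCF-1 linked genes in stimulated cells was -0.074 with a mean of at least 100. Of the 3 genes nearest to a factor, Lef1 and Klf3 shared 2 when 5 was added before taking logs, and quantile normalization left 1 for Tcf7 and Foxo1 and 0 for Lef1, Bach2, Satb1, Klf3 and Foxp1.

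A fit with the replicate number as a replicate block was possible for genotype in stimulated cells (0 factors called) and for stimulation in DKO-labelled cells (6 called, against 5 without it). The deviations of same-numbered libraries correlated at 0.17 between the stimulated groups and 0.26 between the DKO-labelled groups, but with 2 pairs the numbers are not shown to pair the samples. No paired analysis was possible for genotype in unstimulated cells, stimulation in WT cells or the interaction because these groups share fewer than 2 numbers. With 2 libraries a group, leaving 1 out assumes that the lone library varies like the other groups.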
